A study of Mus musculus with 40 samples.

Results

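The comparison described here sets 7 astrocyte pull-down libraries from orchiectomised mice on a high-fat diet (ORX-HFD) against 7 from sham-operated mice on chow (Sham-Chow), out of 40 libraries in the series, taken by the operation, the diet and the fraction named in the labels. All mice carried the Aldh1l1 eGFP-L10a transgene, in which Aldh1l1 regulatory sequence drives a fluorescently tagged ribosomal protein in astrocytes, and the labels call orchiectomy, the removal of the testes, GDX or ORX. Diets were given for 4 weeks and hypothalami were microdissected. A pull-down library holds messages that came down with the tagged ribosomes, and a supernatant library holds what was left. The pull-downs also held other RNA, such as globin and mitochondrially encoded messages, so a message there need not come from astrocyte ribosomes. The pull-downs of 6 samples from sham-operated mice on the high-fat diet (Sham-HFD) stand beside the main comparison. Diet and operation change together between ORX-HFD and Sham-Chow and cannot be told apart within this contrast, since orchiectomised mice on chow are not among the samples analysed here. The labels do not say whether a sample number is 1 mouse, so the p-values speak only of variation among these libraries, which may be technical. In tissue of this kind, fewer cells of a type and less RNA per cell cannot be told apart.

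Astrocytes supply neurons with lipids and lactate, clear glutamate and potassium, and sense hormones and nutrients in the hypothalamus. Testosterone from the testes, and oestradiol made from it, act back on the hypothalamus through steroid receptors, among them oestrogen receptor alpha. In the arcuate nucleus, neurons that make neurokinin B, the peptide encoded by Tac2, carry oestrogen receptor alpha and drive the release of gonadotropin-releasing hormone, and their Tac2 message is known to rise when gonadal steroids are withdrawn.

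The 14 libraries held 7714834 to 14303157 estimated counts. Gm42418, a transcript that overlaps ribosomal RNA sequence, took 2.40% to 16.9% of the counts in ORX-HFD pull-downs and 1.07% to 13.3% in Sham-Chow pull-downs. It passed 10% in ORX-HFD 11, ORX-HFD 22 and Sham-Chow 8. The astrocyte label was met by the marker Aldh1l1. It had 119, 138 and 208 CPM (lowest, median and highest counts, scaled to library size) in ORX-HFD pull-downs, against 129, 147 and 183 CPM in Sham-Chow pull-downs. In the supernatants Aldh1l1 had 1.78 to 11.3 CPM in ORX-HFD and 1.70 to 9.23 CPM in Sham-Chow libraries. The summed level of 22 astrocyte markers lay between 47227 and 63620 CPM in ORX-HFD pull-downs and between 55256 and 69908 CPM in Sham-Chow pull-downs. ORX-HFD 22 had the lowest astrocyte sum and the highest sums of neuron, microglia, mural and endothelial markers. None of 18 library measures differed between the groups at an adjusted p under 0.05 in an exact two-sided permutation test of 7 against 7 libraries, in which the smallest p possible is 0.000583. The lowest adjusted p over those 18 measures was 0.599.

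Of 26792 genes in the table, 14059 were tested with edgeR's quasi-likelihood test, and p-values were adjusted by the Benjamini-Hochberg method. Tac2 and Esr1 rose in ORX-HFD pull-downs at an adjusted p under 0.05, which is 0.0142% of the genes tested, and 0% fell. Whatever their p, 7151 of the genes tested lay higher (50.9%) and 6908 lower. At an unadjusted p under 0.05, 844 genes lay higher and 722 lower in ORX-HFD pull-downs, that is 6% and 5.14% of the genes tested. The median log2 fold change was 0.42 among the 844 higher genes and -0.32 among the 722 lower ones. The number called depended on the tool: DESeq2 called 12 genes, limma voom 1, which was Esr1, and limma voom with sample quality weights 11. With no scaling between libraries, 1117 of 1542 genes at that unadjusted threshold lay higher.

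**Figure D1:**
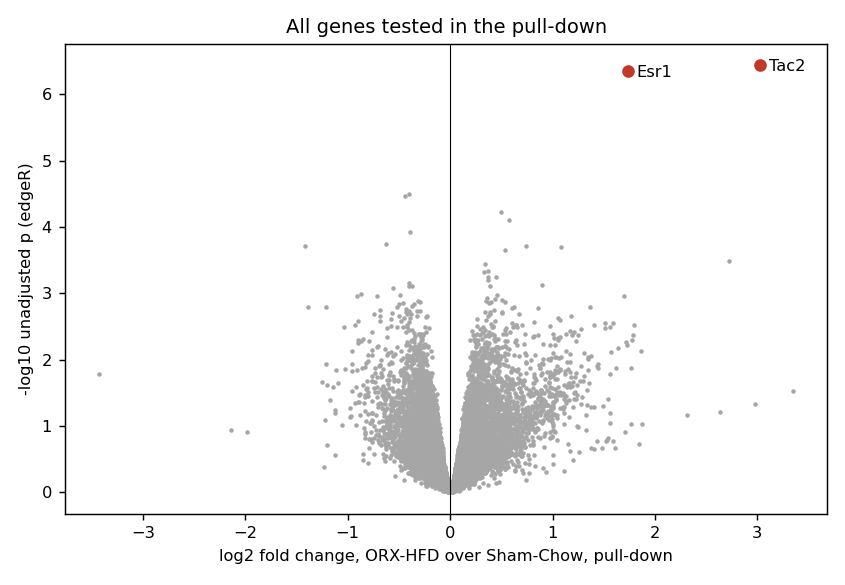
Log2 fold change, ORX-HFD over Sham-Chow, against -log10 of the unadjusted edgeR p for each of 14059 genes tested in the pull-down. The red points are Tac2, at a log2 fold change of 3.03, and Esr1, at 1.73, and grey points are genes at an adjusted p of 0.05 or more.

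Tac2, on chromosome 10 at 127724478 to 127731768 (GRCm38, plus strand), had 9.46, 1.47, 2.43, 11.7, 9.76, 10.3 and 5.42 CPM in ORX-HFD pull-downs 2, 6, 10, 11, 14, 17 and 22. It had 0.427, 1.44, 1.00, 0.631, 0.678, 0.788 and 1.24 CPM in Sham-Chow pull-downs 7, 8, 12, 15, 19, 21 and 23. All 7 ORX-HFD pull-downs lay above all 7 Sham-Chow pull-downs, although ORX-HFD 6 exceeded Sham-Chow 8 by little. These levels rest on 20 to 132 counts per library in ORX-HFD pull-downs and 6 to 16 in Sham-Chow pull-downs. The log2 fold change was 3.03 ± 0.43 (SE), with an adjusted p of 0.00312 in edgeR. The exact two-sided permutation p for n = 7 in each group was 0.000583, unadjusted. That is the smallest p possible, which any gene whose groups do not overlap reaches, so it only restates the lack of overlap. With limma voom in place of edgeR the log2 fold change was 2.78 and the adjusted p 0.23.

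Esr1, which encodes oestrogen receptor alpha, lies on chromosome 10 at 4611593 to 5005614 (plus strand). It had 2.79, 2.59, 2.31, 4.72, 2.59, 3.85 and 3.33 CPM in ORX-HFD pull-downs, in the same library order. It had 1.14, 1.34, 0.821, 1.08, 0.678, 0.788 and 0.773 CPM in Sham-Chow pull-downs. The groups did not overlap, and the spread within each was narrower than for Tac2. The counts were 19 to 47 per library in ORX-HFD pull-downs and 8 to 16 in Sham-Chow pull-downs. The log2 fold change was 1.73 ± 0.25 (SE), with an adjusted p of 0.00312 in edgeR. The unadjusted exact two-sided permutation p for n = 7 in each group was again the smallest possible, 0.000583, and restates the lack of overlap.

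The mean of the Sham-HFD pull-downs lay near that of Sham-Chow for both genes, but single libraries lay higher. Sham-HFD 1 had 2.56 CPM of Tac2, above ORX-HFD 6 (1.47 CPM) and ORX-HFD 10 (2.43 CPM). For Esr1, Sham-HFD 1 (2.05 CPM) and Sham-HFD 9 (1.45 CPM) lay above the highest Sham-Chow pull-down (1.34 CPM). Both lay below the lowest ORX-HFD one (2.31 CPM). Tac2 averaged 7.22 ± 4.08 CPM in ORX-HFD, 1.16 ± 0.729 CPM in Sham-HFD and 0.886 ± 0.358 CPM in Sham-Chow pull-downs (SD). Esr1 averaged 3.17 CPM in ORX-HFD, 1.24 CPM in Sham-HFD and 0.946 CPM in Sham-Chow pull-downs. For Sham-HFD against Sham-Chow the log2 fold change was 0.38 for Tac2 and 0.37 for Esr1, and edgeR called 0 genes in that contrast, with 240 at an unadjusted p under 0.05. For ORX-HFD against Sham-HFD, which shares the ORX-HFD libraries with the main contrast, edgeR called 0 genes, with 918 at an unadjusted p under 0.05. Tac2 had a log2 fold change of 2.65 there with an adjusted p of 0.0579 in edgeR, and Esr1 did not pass either.

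In the supernatants the groups overlapped for both genes. Tac2 had 62.9, 28.6, 24.2, 25.0, 20.8, 42.6 and 25.6 CPM in ORX-HFD supernatants and 30.9, 24.0, 31.5, 42.2, 37.0, 30.9 and 35.7 CPM in Sham-Chow supernatants. Esr1 had 5.17 to 10.6 CPM in ORX-HFD supernatants and 6.86 to 10.6 CPM in Sham-Chow supernatants. For ORX-HFD over Sham-Chow the log2 fold change in the supernatants was -0.01 for Tac2 and -0.02 for Esr1. Of 14628 genes tested in the supernatant, 0% were called by edgeR and 331 had an unadjusted p under 0.05. The difference between fractions, tested as an interaction over all 40 libraries, passed for 0.0128% of 15629 genes. These were Esr1, at 1.75 ± 0.26 (log2, SE) with an adjusted p of 0.000983 in edgeR, and Tac2, at 3.04 ± 0.47 with an adjusted p of 0.00103. Summed neuron markers were 1181 to 2143 CPM in ORX-HFD pull-downs and 1074 to 1771 CPM in Sham-Chow pull-downs, and their part in the Tac2 and Esr1 differences was not tested.

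**Figure D2:**
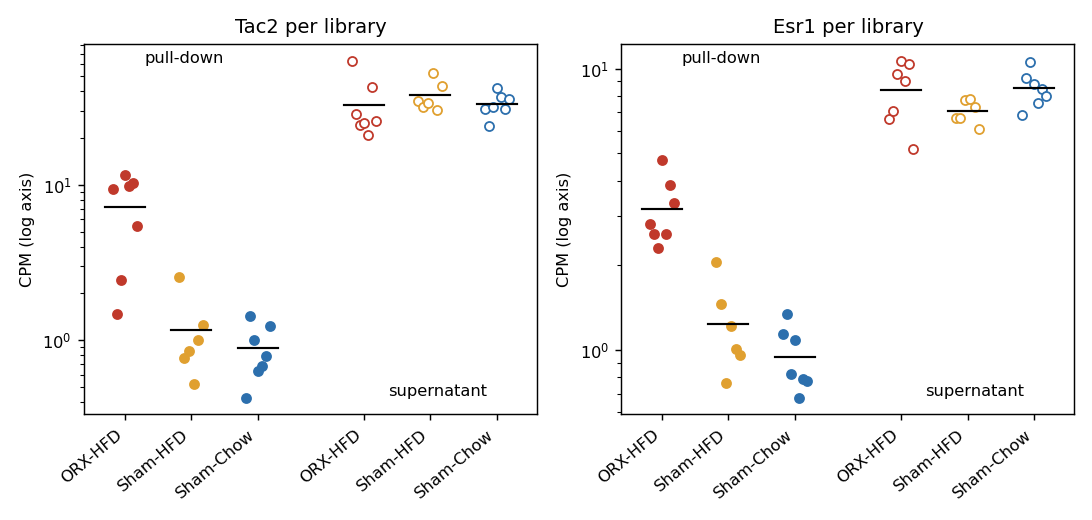
Tac2 and Esr1 in CPM on a log axis for each library of ORX-HFD, Sham-HFD and Sham-Chow, with filled points for pull-downs, open points for supernatants and a bar at each group mean. In the pull-downs the ORX-HFD points lie above all Sham-Chow points, while in the supernatants the groups overlap.

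The promoter windows of the genes called are shown because both rose together; each runs 5′ to 3′ over 300 bases across the RefSeq start, in build GRCm38.p6 on the plus strand. Tac2 is chr10:127724228-127724527 and the first Esr1 window is chr10:4611739-4612038. Capitals would mark a match on either strand to the oestrogen receptor half-site AGGTCA or to the box motif TATAAA. Neither window held either of them, so both are in lower case, and a second Esr1 window held none either. Of 32851 windows of this length, 16.3% held the oestrogen receptor half-site and 13.6% the box motif, so that no match says only that these letters are not in these windows.
Tac2: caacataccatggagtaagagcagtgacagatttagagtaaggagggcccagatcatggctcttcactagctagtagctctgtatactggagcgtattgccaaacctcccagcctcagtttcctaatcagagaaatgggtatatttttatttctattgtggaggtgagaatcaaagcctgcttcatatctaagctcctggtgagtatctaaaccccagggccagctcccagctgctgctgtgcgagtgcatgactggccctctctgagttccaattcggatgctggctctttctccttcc
Esr1: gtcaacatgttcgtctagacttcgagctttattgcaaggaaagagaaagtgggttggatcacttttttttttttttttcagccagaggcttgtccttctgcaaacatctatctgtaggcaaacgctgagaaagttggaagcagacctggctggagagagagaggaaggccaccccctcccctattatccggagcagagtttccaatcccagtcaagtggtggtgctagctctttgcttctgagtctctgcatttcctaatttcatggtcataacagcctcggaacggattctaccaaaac

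Among 9 tested genes of steroid-feedback neurons, a list that includes Tac2 and Esr1, 8 lay higher and 1 lower. At an unadjusted p under 0.05, 6 were higher (66.7%, beside 6% of all genes tested). The list's median log2 fold change was 0.54, beside 0.0040 over all genes tested, and 0.39 without ORX-HFD 22. Tacr3, the receptor of neurokinin B, had 1.09, 1.47 and 2.22 CPM (lowest, median, highest) in ORX-HFD pull-downs, against 0.213, 0.730 and 1.34 CPM in Sham-Chow pull-downs, a log2 fold change of 1.13 ± 0.38. Pdyn, the precursor of dynorphin, had 7.53, 11.2 and 19.2 CPM in ORX-HFD pull-downs, against 4.41, 8.83 and 11.4 CPM in Sham-Chow pull-downs. The groups overlapped for both genes, and neither passed the adjusted test. The prolactin receptor gene Prlr lay at a log2 fold change of 0.54 ± 0.26.

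Of 17 tested genes of steroid receptors and steroid metabolism, Esr1 among them, 12 lay higher and 5 lower. Their median log2 fold change was 0.13. Nr3c2, the mineralocorticoid receptor, had 18.1, 26.2 and 34.7 CPM in ORX-HFD pull-downs, against 14.0, 17.4 and 20.4 CPM in Sham-Chow pull-downs. Sult1a1, a sulfotransferase, had 3.72, 11.1 and 17.8 CPM in ORX-HFD pull-downs, against 13.2, 21.4 and 25.4 CPM in Sham-Chow pull-downs. The ranges overlapped, and the log2 fold changes were 0.53 ± 0.15 for Nr3c2 and -0.93 ± 0.28 for Sult1a1, both at an adjusted p of 0.369 in edgeR. Of 27 androgen-response genes, 15 lay higher and 12 lower, with a median of 0.02. At an unadjusted p under 0.05 were 4 higher and 3 lower, 14.8% and 11.1% beside 6% and 5.14% of all genes tested. Of 17 glucocorticoid-induced genes, 5 lay higher and 12 lower, with a median of -0.17.

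Feeding peptides did not move in 1 direction. Pomc, the precursor of melanocortins that curb feeding, had 21.2, 32.7 and 96.4 CPM in ORX-HFD pull-downs, against 10.6, 13.6 and 24.7 CPM in Sham-Chow pull-downs. Only the lower ORX-HFD pull-downs overlapped the upper Sham-Chow ones, and the log2 fold change was 1.37 ± 0.37 with an adjusted p of 0.369 in edgeR. ORX-HFD 22 and 11 gave the highest Pomc values (96.4 and 52.4 CPM), and Sham-HFD pull-downs spanned 18.1 to 73.9 CPM, the highest in Sham-HFD 1. ORX-HFD 22, ORX-HFD 11 and Sham-HFD 1 were pull-downs over 10% Gm42418, as was Sham-Chow 8, with 23.9 CPM of Pomc. Agrp, which promotes feeding, had 0, 0.585 and 1.48 CPM in ORX-HFD pull-downs, against 0.415, 0.551 and 6.25 CPM in Sham-Chow pull-downs, where the highest value came from Sham-Chow 8. Npy had a log2 fold change of -0.29 ± 0.22 and Cartpt of 1.00 ± 0.49. Cartpt had 112 and 64.7 CPM in ORX-HFD 22 and 11 and 14.9 to 28.9 CPM in the other ORX-HFD pull-downs. Among Sham-Chow pull-downs it was highest in Sham-Chow 8, at 44.7 CPM. Neither Agrp, Npy nor Cartpt passed the test. Of 21 hypothalamic neuropeptide markers 16 lay higher, with a median of 0.15. Their summed level was 381 to 1385 CPM in ORX-HFD pull-downs and 330 to 1088 CPM in Sham-Chow pull-downs.

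Several genes came next in order of p without passing. The groups did not overlap in 17 genes that lay higher and 20 that lay lower in ORX-HFD pull-downs, 0.121% and 0.142% of the genes tested. Ldb1, a cofactor of LIM-domain transcription factors, had 12.9, 14.8 and 18.0 CPM in ORX-HFD pull-downs, against 9.06, 11.0 and 11.9 CPM in Sham-Chow pull-downs. Bmp2k, a kinase inducible by bone morphogenetic protein, had 43.5, 44.7 and 54.0 CPM in ORX-HFD pull-downs, against 30.9, 37.3 and 40.8 CPM in Sham-Chow pull-downs. For Ldb1 and Bmp2k the groups did not overlap, at log2 fold changes of 0.53 ± 0.12 and 0.37 ± 0.09. Axin2, a target and inhibitor of Wnt signalling, had 10.5, 12.4 and 17.5 CPM in ORX-HFD pull-downs, against 5.93, 7.25 and 11.4 CPM in Sham-Chow pull-downs, with overlap through Sham-Chow 8 alone. Its log2 fold change was 0.74 ± 0.17. The remaining genes of this group were Stk24 (a protein kinase), Pcdhb11 (a clustered protocadherin, whose close paralogues make its counts uncertain), Zdhhc21 (a palmitoyltransferase), Kctd12 (an auxiliary subunit of GABA-B receptors) and Safb (a nuclear RNA-binding scaffold protein), at log2 fold changes of 0.33 to 1.09 and adjusted p of 0.183 to 0.369 in edgeR.

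On the lower side Cacng4, an auxiliary subunit of AMPA-type glutamate receptors, had 25.9, 28.3 and 34.3 CPM in ORX-HFD pull-downs, against 35.7, 38.8 and 47.4 CPM in Sham-Chow pull-downs. Every ORX-HFD pull-down lay below every Sham-Chow pull-down, at a log2 fold change of -0.44 ± 0.09 and an adjusted p of 0.121 in edgeR. The gene 1810058I24Rik, left out of the naming for its symbol, also lay lower without overlap, at a log2 fold change of -0.40. Its unadjusted edgeR p was 3.14e-05, just below that of Cacng4 (3.46e-05). Sham-HFD pull-downs had 33.2, 42.0 and 47.5 CPM of Cacng4. N4bp2l1 had 11.4, 12.1 and 14.4 CPM in ORX-HFD pull-downs, against 14.6, 16.9 and 17.5 CPM in Sham-Chow pull-downs. Clasrp, a protein linked to splicing, had 3.40, 3.91 and 4.44 CPM in ORX-HFD pull-downs, against 5.29, 5.49 and 8.81 CPM in Sham-Chow pull-downs. Neither gene's groups overlapped. The other named genes here were Fah (the last enzyme of tyrosine breakdown), Gpatch4, Dnlz, Cirbp (a cold-inducible RNA-binding protein), Plekhd1, Pctp (a phosphatidylcholine transfer protein) and Gpr179, with log2 fold changes of -0.91 to -0.37 and an adjusted p of 0.369 each in edgeR. Cyp4f15, a cytochrome P450, lay at -0.43 ± 0.12.

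**Figure D3:**
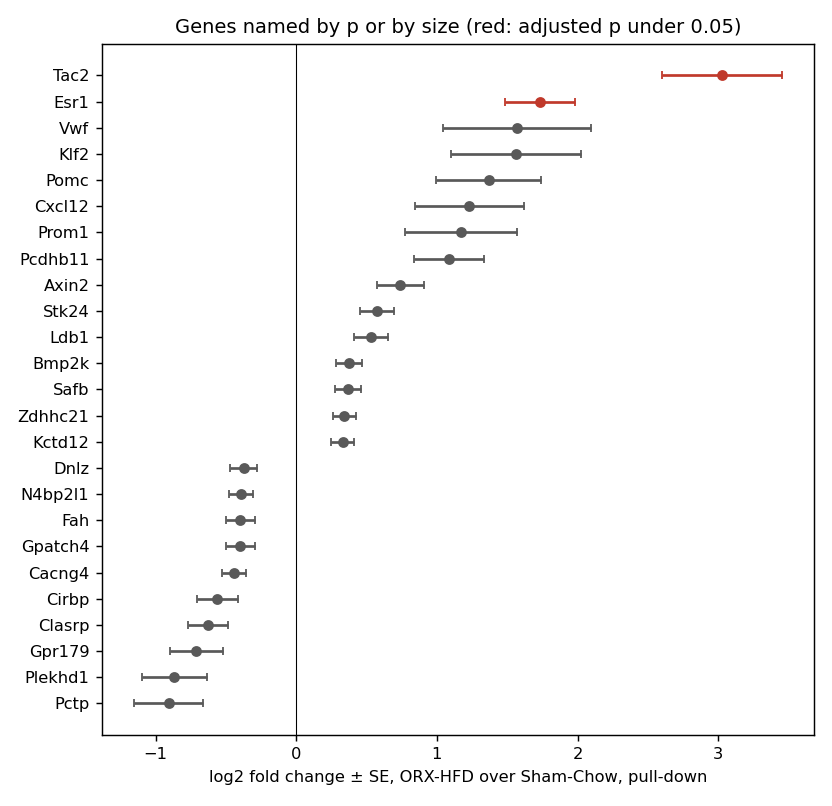
Log2 fold change ± SE, ORX-HFD over Sham-Chow, in the pull-down for 25 genes named by their p or size. Tac2 and Esr1, in red, passed the adjusted test, and the grey genes did not.

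Among genes at 10 CPM or more and an unadjusted p under 0.01, the 5 named for the size of their shift were Vwf, Klf2, Pomc, Cxcl12 and Prom1, and their values varied widely between libraries. Vwf, von Willebrand factor of blood vessel walls, had 5.84, 11.4 and 63.7 CPM in ORX-HFD pull-downs, against 4.33, 5.90 and 14.9 CPM in Sham-Chow pull-downs. Klf2, an endothelial transcription factor responsive to blood flow, had 18.2, 27.5 and 115 CPM in ORX-HFD pull-downs, against 11.6, 15.5 and 29.7 CPM in Sham-Chow pull-downs. The groups overlapped for both, at log2 fold changes of 1.57 ± 0.53 and 1.56 ± 0.46. Cxcl12, a chemokine, lay at 1.23 ± 0.39 and Prom1, a membrane glycoprotein, at 1.17 ± 0.40. All 14 tested endothelial markers lay higher, 9 of them at an unadjusted p under 0.05 and 0 at an adjusted one. The 9 were 64.3% of the list, beside 6% of all genes tested. The list's median was 1.07. That median was 0.83 without ORX-HFD 22 and 0.84 without the pull-downs over 10% Gm42418. Cdh5, the endothelial cadherin, and Slco1a4, a transporter of the blood-brain barrier, lay at 1.00 ± 0.38 and 1.16 ± 0.47.

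The summed endothelial markers stood at 553 to 2476 CPM in ORX-HFD pull-downs and 363 to 1171 CPM in Sham-Chow pull-downs. ORX-HFD 22, 6 and 11 were the high ones, with 2476, 1892 and 1624 CPM, and the other 4 lay within the Sham-Chow range. The 5 red blood cell markers had a median of 1.11, which was 0.27 without ORX-HFD 6, whose summed level was 6545 CPM. Globin genes such as Hbb-bs and Hbb-bt are close copies, so their separate counts are uncertain. In the supernatant the endothelial median was 0.01. Higher values in the pull-down were not particular to vessel markers. Of oligodendrocyte markers 13 of 15 lay higher, of microglia and macrophage markers 15 of 17, of mural markers 10 of 11 and of neuron markers 19 of 23. The medians were 0.36, 0.30, 0.55 and 0.11, in that order. Of 10 fibroblast markers 5 lay higher and 5 lower. How far the content of vessels or of these other cell types moved the other genes was not tested.

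**Figure D4:**
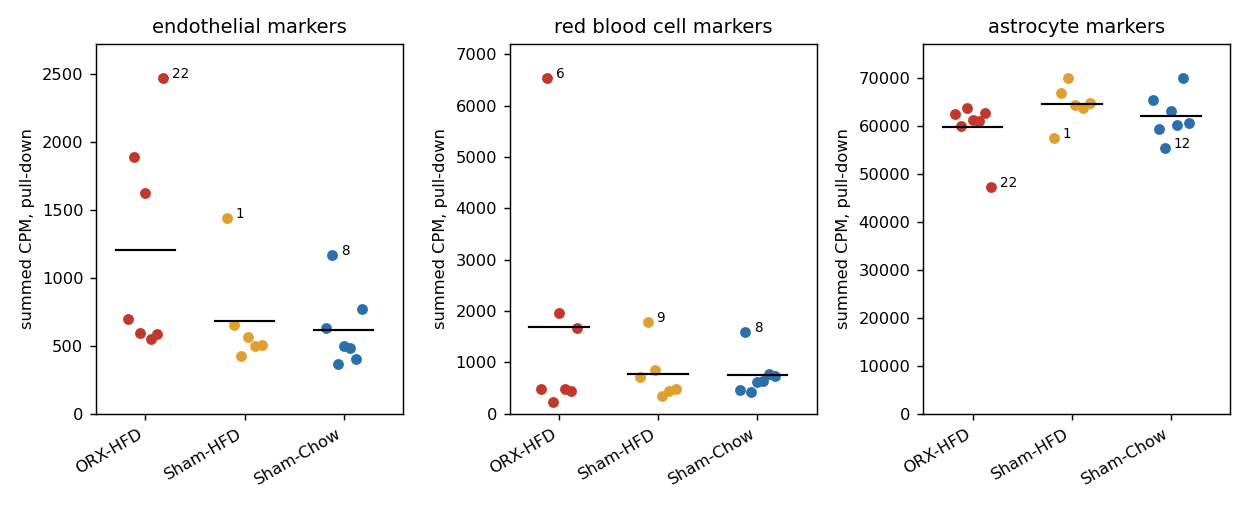
Summed CPM of endothelial, red blood cell and astrocyte markers in each pull-down of ORX-HFD, Sham-HFD and Sham-Chow, with a bar at the group mean and the sample number beside 1 extreme library per group. ORX-HFD 22 has the highest endothelial sum (2476 CPM) and the lowest astrocyte sum (47227 CPM), and ORX-HFD 6 has the highest red blood cell sum (6545 CPM).

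Of 15 immediate early genes, which respond within minutes to stimulation, 14 lay higher. At an unadjusted p under 0.05, 4 did so (26.7%, beside 6% of all genes tested). The list's median was 0.40, which was 0.20 without ORX-HFD 22 and 0.16 without the pull-downs over 10% Gm42418. Fos had 13.2, 15.6 and 17.4 CPM in ORX-HFD pull-downs, against 7.89, 10.8 and 12.8 CPM in Sham-Chow pull-downs, and the groups did not overlap. Its log2 fold change was 0.61 ± 0.17. The other genes at that unadjusted threshold were Nr4a1, Klf2 and Klf4. Klf2 and Klf4 were highest in ORX-HFD 6, 11 and 22, the pull-downs with the highest endothelial sums. Klf4 had 45.0, 40.2 and 47.2 CPM there and at most 18.3 CPM in the other ORX-HFD pull-downs. Of 23 genes of the unfolded protein response, 18 lay higher. At an unadjusted p under 0.05, 6 did so (26.1%, beside 6% of all genes tested). Manf, a secreted stress-induced factor, had 40.9, 45.6 and 74.0 CPM in ORX-HFD pull-downs, against 33.9, 39.8 and 41.5 CPM in Sham-Chow pull-downs. Xbp1, a transcription factor of that response, had 26.0, 36.1 and 53.2 CPM in ORX-HFD pull-downs, against 21.2, 25.5 and 28.0 CPM in Sham-Chow pull-downs. Both overlapped slightly, with log2 fold changes of 0.43 ± 0.12 and 0.51 ± 0.15. Of 17 heat shock genes 8 lay higher and 9 lower, with a median of -0.06, and of 24 antioxidant and metallothionein genes 11 lay higher and 13 lower, with a median of -0.01 whose sign turned with no scaling between libraries.

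Inflammatory and signalling lists were mixed. Of 30 astrocyte reactivity genes, 17 lay higher and 13 lower, 7 and 0 of them at an unadjusted p under 0.05. These were 23.3% and 0% of the list, beside 6% and 5.14% of all genes tested. Gfap, the classical marker of reactive astrocytes, had 416, 535 and 728 CPM in ORX-HFD pull-downs, against 385, 583 and 686 CPM in Sham-Chow pull-downs, a log2 fold change of -0.01 ± 0.13 whose sign turned with the scaling. Osmr, the oncostatin M receptor, lay at 0.54 ± 0.18 and Vim, vimentin, at 0.32 ± 0.13. Of 22 NF-kB and cytokine genes, 16 lay higher. At an unadjusted p under 0.05, 5 did so (22.7%, beside 6% of all genes tested), among them Nfkb1 at 0.45 ± 0.15. Of 29 leptin, insulin and related signalling genes, 19 lay higher, with Igf1r, the receptor of insulin-like growth factor 1, at 0.27 ± 0.09. Notch1, a receptor that holds cells in a glial state, had 121, 143 and 159 CPM in ORX-HFD pull-downs, against 81.1, 113 and 126 CPM in Sham-Chow pull-downs.

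Metabolic lists lay mostly lower, by small amounts, beside 6908 lower of all 14059 genes tested. Of 50 nuclear genes of oxidative phosphorylation, 47 lay lower, with a median of -0.18. At an unadjusted p under 0.05, 18 did so (36%, beside 5.14% of all genes tested). Uqcrq, a subunit of complex III, had 294, 302 and 326 CPM in ORX-HFD pull-downs, against 318, 334 and 433 CPM in Sham-Chow pull-downs. Only the top of the ORX-HFD range reached the Sham-Chow range. Of 81 cytosolic ribosomal protein genes, 75 lay lower, with a median of -0.16, and close pseudogene copies make their separate counts uncertain. At an unadjusted p under 0.05, 12 lay lower (14.8%, beside 5.14% of all genes tested). Among them, Rpl23 had 435 and 409 CPM in ORX-HFD 11 and 22 and 415 to 587 CPM in the other ORX-HFD pull-downs. It had 468 CPM in Sham-Chow 8 and 509 to 694 CPM in the other Sham-Chow pull-downs. ORX-HFD 11, ORX-HFD 22 and Sham-Chow 8 were the pull-downs over 10% Gm42418. Of 13 mitochondrially encoded genes 10 lay higher, with a median of 0.05. Of 25 cholesterol synthesis genes 21 lay lower, among them Ebp, a sterol isomerase, with 16.4, 21.7 and 26.6 CPM in ORX-HFD pull-downs, against 24.6, 28.0 and 31.2 CPM in Sham-Chow pull-downs. The cholesterol synthesis median was -0.10. It was -0.14 for Sham-HFD against Sham-Chow and 0.0047 for ORX-HFD against Sham-HFD. In the same order the medians were -0.08 and -0.10 for oxidative phosphorylation and -0.05 and -0.14 for ribosomal protein genes. Both contrasts share the Sham-HFD libraries, and the parts of diet and operation were not tested. Of 29 genes of fatty acid oxidation and ketone metabolism 20 lay lower, with a median of -0.08.

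Some abundant astrocyte genes also lay lower. Aldoc, the brain aldolase, had 5059, 5879 and 6256 CPM in ORX-HFD pull-downs, against 6441, 6757 and 7585 CPM in Sham-Chow pull-downs, with no overlap and a log2 fold change of -0.24 ± 0.08. Fabp7, a fatty acid carrier of astrocytes, had 120, 190 and 364 CPM in ORX-HFD pull-downs, against 173, 356 and 495 CPM in Sham-Chow pull-downs. Its groups overlapped, at -0.76 ± 0.23. The metallothionein genes Mt1 and Mt2, which bind zinc and copper, lay at -0.36 ± 0.12 and -0.58 ± 0.17. Gja1, the gap junction protein connexin 43, lay in the other direction at 0.23 ± 0.10. Of 22 astrocyte markers 18 lay lower, with a median of -0.10 in the pull-down and 0.53 in the supernatant. In ORX-HFD 22 the astrocyte sum was lowest, and its part in these differences was not tested.

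**Figure D5:**
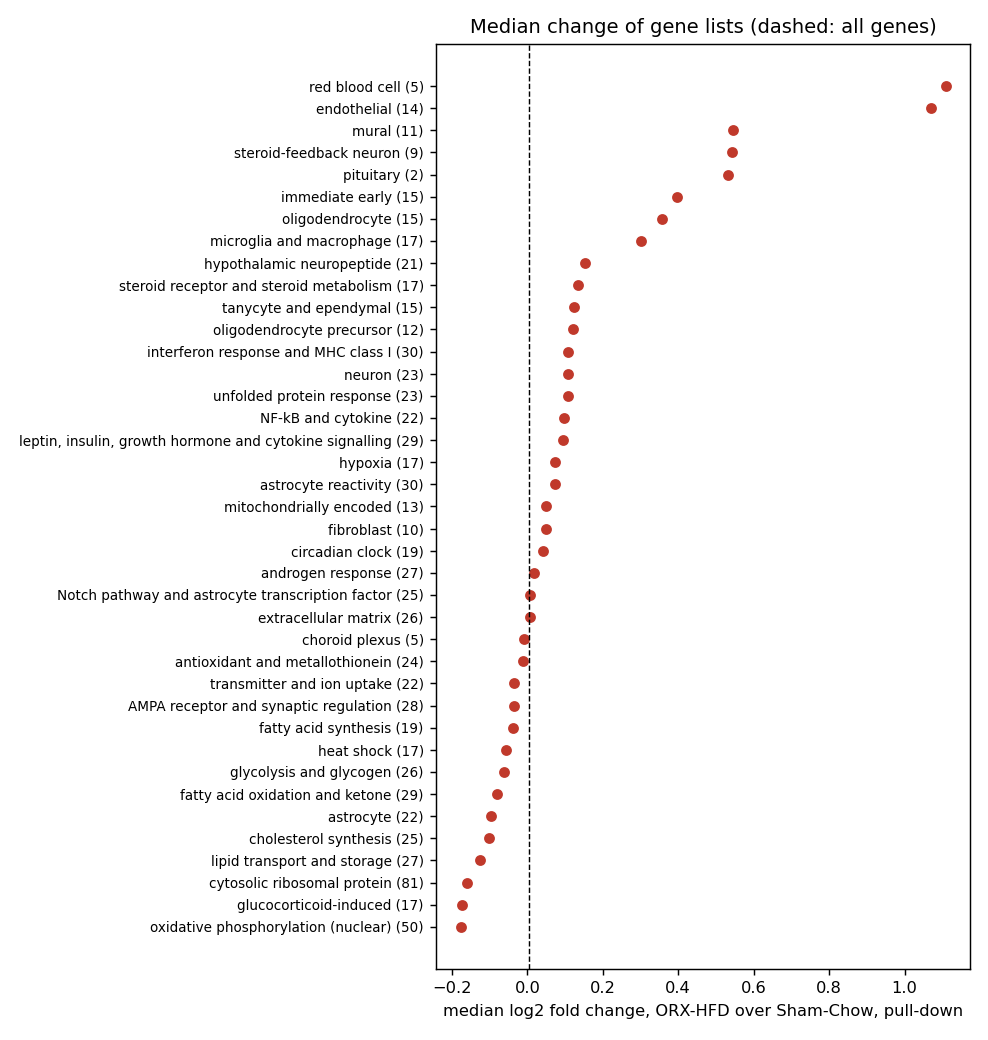
Median log2 fold change, ORX-HFD over Sham-Chow, in the pull-down for each of 39 gene lists, with the number of tested members in parentheses and a dashed line at the median of all genes tested. Red blood cell (1.11) and endothelial (1.07) markers have the highest medians and oxidative phosphorylation (-0.18) the lowest.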

How the data were processed

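Per the labels' protocols, messenger RNA was isolated and sequenced from the 3′ end with a QuantSeq kit. Per the submitters' processing notes, Trim Galore 0.6.4, Salmon 1.9.0 and the build GRCm38 were used; how strand was treated, which annotation served and how transcripts were summed is not given in the sources used here, so overlapping and antisense genes are uncertain. The deposited table holds estimated counts per gene, 12.7% of them (zeros aside) with a fractional part, and these were rounded. A second deposited table, used only as an alternative, is a signal that equals the estimated counts times 1 factor per library for 25089 of 26783 symbols (within 0.01 counts). Every column of both tables was mapped to a sample by its label, and 0 columns were left over.

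Genes were filtered with edgeR 4.0.16 (filterByExpr, minimum count 10), scaled by TMM and tested by the robust quasi-likelihood test in R 4.3.3 over the 20 pull-downs as 3 group means, and over all 40 libraries for the interaction. An adjusted p under 0.05 was called. CPM are TMM-scaled. DESeq2 1.42.0 and limma 3.58.1 were alternatives, and the code was tested on simulated data. Gene positions come from the GENCODE annotation of GRCm38. Genes were named as follows: at 2 CPM or more, 10 per direction by smallest p, the 5 largest shifts at 10 CPM or more and an unadjusted p under 0.01, up to 4 members of each list, and a fixed set, not every member of which is reported here. Naming by p or by size left out symbols of Gm and digits, ending in Rik, or starting with AC or AL and digits. The comparison, the genes and the lists were chosen with earlier results of these data known.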

Additional observations from a re-analysis of the deposited data

Results flagged for a closer look

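In groups of 7 pull-downs, a library was singled out when its gap to the nearest other value passed Dixon's 95% critical value. Chance does so in about 1 in 20 groups if values are normally distributed, which was not tested here. The groups examined are also not independent, since they share libraries and some marker sums contain genes examined on their own. The share found therefore cannot be set against that rate, and the libraries are listed as a description only. Of the 210 groups examined, 36, or 17.1%, held such a library.

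ORX-HFD 22 accounted for 11 of them. It was highest for Axin2 (17.5 CPM), Pomc (96.4 CPM), Prlr (14.3 CPM) and Osmr (14.7 CPM), and lowest for Gabbr2 (395.8 CPM), a GABA-B receptor subunit. Its mitochondrially encoded share was the highest, at 1.63%. Its summed astrocyte markers were the lowest, at 47230 CPM. Its sums were the highest for neuron (2143 CPM), hypothalamic neuropeptide (1385 CPM), microglia and macrophage (302.9 CPM) and mural (586.3 CPM) markers. ORX-HFD 6 was highest for Cxcl12 (291 CPM), Hbb-bs (2559 CPM), Hbb-bt (478.6 CPM) and summed red blood cell markers (6545 CPM). ORX-HFD 10 was highest for Uqcrq (325.9 CPM) and Srebf1 (231.3 CPM), and ORX-HFD 11 for Jag1 (38.7 CPM).

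Sham-Chow 8 accounted for 10. It was highest for Axin2 (11.4 CPM), Agrp (6.25 CPM), Npy (12.5 CPM), Cdh5 (21.7 CPM), Slco1a4 (122.3 CPM), Hbb-bs (529.9 CPM), Hbb-bt (91.9 CPM) and Sytl4 (4.595 CPM). Its pituitary sum (19.3 CPM) and red blood cell sum (1599 CPM) were the highest too. Sham-Chow 12 was highest for Uqcrq (432.8 CPM), Cox6a1 (628.2 CPM) and Plin2 (34.1 CPM) and lowest for Notch1 (81.1 CPM). Sham-Chow 19 was highest for Clasrp (8.81 CPM) and summed fibroblast markers (822.2 CPM), Sham-Chow 21 for Akr1c14 (1.97 CPM) and Sham-Chow 23 for Cacng4 (47.4 CPM).

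The change differed between the fractions for Tac2, by 3.04 on the log2 scale, and for Esr1, by 1.75, in the interaction test reported above.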

How the results depend on the processing

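The count of 2 genes called was 12 with DESeq2, 1 with limma voom, 11 with limma voom and sample quality weights, and 0 at a filter of 5 CPM in 6 libraries, which removed Tac2 and Esr1 by construction. Leaving out 1 replicate at a time gave 2 to 4 genes, 4 of them without ORX-HFD 6, with log2 fold changes of 2.88 to 3.22 for Tac2 and 1.61 to 1.83 for Esr1. With limma voom, Tac2 lay at 2.78 (adjusted p 0.23), its difference between fractions at 2.87 (adjusted p 0.202), and the interaction called 1 gene; the cause was not tested. No replicate block was possible in the main contrast because its groups share no sample numbers. Between fractions, same-numbered libraries deviated together with correlations of -0.07 to 0.15, and 10 of 20 correlated best with their own number, a hint of pairing that the labels do not state. The fit with the replicate block called 2 genes, with Tac2 at 2.92 and Esr1 at 1.75.

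The signs of Gfap and Aldh1l1, whose shifts lay near 0, turned. The Gfap log2 fold change was 0.00279 with sample quality weights, 0.0145 with no scaling, 0.0617 without the pull-downs over 10% Gm42418, 0.0069 in the second table at either pseudocount, and between -0.0839 and 0.0525 as replicates were left out in turn. The Aldh1l1 log2 fold change lay between -0.134 and 0.0126 as replicates were left out, above 0 without Sham-Chow 8 or ORX-HFD 2. A larger shift was lost elsewhere: the Hbb-bt log2 fold change of 1.49 was -0.00125 with sample quality weights, and the cause was not tested. The Nr4a1 log2 fold change of 0.86 was 0 in the second table, where 1694 of 26783 symbols hold other values than the estimated counts. The Nr4a1 value there is therefore no measure of how far its shift depends on the processing. Depth limits Tac2 and Esr1, whose Sham-Chow pull-downs held 6 to 16 counts each.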
